A study of Mus musculus with 68 samples.

Results

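The miRNAs of the lung were compared between CAST/EiJ and C57BL/6J mice that had both inhaled 1,3-butadiene (BD). Of the 480 miRNA rows in the deposited small RNA table, the 320 that carry a value in every library were the ones compared, in 3 CAST/EiJ libraries (title numbers 7, 9 and 10) and 4 C57BL/6J libraries (title numbers 15 to 18). They are 7 of the 20 small RNA libraries and of the 68 samples of all assays. All mice were wild-type males from one vendor, given BD or clean air. BD was given for 6 h daily on working days over 2 weeks. The BD concentration and the ages are not given in the labels. CAST/EiJ is a wild-derived inbred strain, C57BL/6J is the common laboratory strain, and BD is an industrial gas that the body turns into DNA-reactive epoxides. Clean-air libraries of the same strains, 7 of CAST/EiJ and 5 of C57BL/6J, were used as a separate comparison. Nothing in the labels says which libraries came from separate animals, so the p-values measure the spread between libraries, which may be technical.

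The library labelled CAST/EiJ BD with title number 8 was left out because its profile is that of C57BL/6J. On an index built from the 127 miRNAs that differed between the strains in clean air, where the C57BL/6J clean-air mean is 0 and the CAST/EiJ clean-air mean is 1, number 8 lies at 0.122. The other CAST/EiJ BD libraries lie between 0.836 and 0.872 and the C57BL/6J BD libraries between 0.0637 and 0.306. The totals of the CAST/EiJ BD libraries are 2519778 to 3156828 counts. C57BL/6J numbers 15 to 17 hold 7676679 to 8474182 counts, and number 18 holds 3146118. No pair of libraries agreed within counting noise. The mRNA libraries of the same groups carried the lung's own transcripts at high levels. Sftpc, the surfactant gene of alveolar type 2 cells, had a median of 11148 CPM (counts per 1e+06 counts) in CAST/EiJ and 10652 CPM in C57BL/6J under BD. Number 18 deviates from the other C57BL/6J BD libraries in many miRNAs, as given beside the results below.

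A miRNA is a short RNA cut from a hairpin precursor, from its 5′ arm (5p) or its 3′ arm (3p). Loaded into an Argonaute protein, it pairs with messenger RNAs mainly through its seed, bases 2 to 8, and lowers their translation and stability. In the lung, miR-34 and miR-449 are known from multiciliated airway cells, miR-200 from epithelium, miR-143 and miR-145 from smooth muscle, miR-126 from endothelium, and miR-142, miR-150 and miR-223 from leukocytes.

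The mature sequences of the miRNAs that the results below turn on are shown first. They are from RefSeq (GRCm38.p6) and written 5′ to 3′, with the seed in capitals. The first set shares the seed of miR-34 and miR-449, and its members did not differ alike between the strains:
miR-34a-5p: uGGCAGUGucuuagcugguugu
miR-34b-5p: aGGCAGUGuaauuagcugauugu
miR-449a-5p: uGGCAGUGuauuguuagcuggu
miR-449c-5p: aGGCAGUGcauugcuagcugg

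Each of the next groups is a seed family in which only some of the members shown passed the test, or in which members passed in opposite directions:
miR-222-3p: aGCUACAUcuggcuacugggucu
miR-221-3p: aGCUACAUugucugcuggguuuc
miR-29b-1-3p: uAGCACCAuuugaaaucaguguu
miR-29a-3p: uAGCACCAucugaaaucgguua
miR-29c-3p: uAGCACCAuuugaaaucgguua
miR-152-3p: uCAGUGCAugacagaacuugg
miR-148a-3p: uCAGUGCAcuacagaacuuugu
miR-148b-3p: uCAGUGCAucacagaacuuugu
miR-195-5p: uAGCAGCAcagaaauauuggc
miR-497-5p: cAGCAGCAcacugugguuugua

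The last set holds further miRNAs with large strain differences. The 342 pair comes from both arms of one hairpin:
miR-1298-5p: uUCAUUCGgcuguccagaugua
miR-153-3p: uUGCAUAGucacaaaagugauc
miR-879-5p: aGAGGCUUauagcucuaagcc
miR-542-3p: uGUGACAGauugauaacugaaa
miR-1247-5p: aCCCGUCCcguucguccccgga
miR-342-5p: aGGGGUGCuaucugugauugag
miR-342-3p: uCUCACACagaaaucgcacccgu
miR-224-5p: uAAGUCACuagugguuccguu
miR-146b-5p: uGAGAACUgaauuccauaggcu

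Under BD, 134 of the 320 miRNAs (41.9%) differed between the strains at an adjusted p under 0.05 (edgeR's quasi-likelihood test with Benjamini-Hochberg adjustment over all 320, the source of every adjusted p given here for a miRNA). Of these, 59 (18.4%) were higher and 75 (23.4%) lower in CAST/EiJ, and 186 did not pass. Most differences were modest: 33 of the 134 were at least 2-fold, 11 of them higher and 22 lower, and 48 were under 1.5-fold. The CPM ranges of the strains did not overlap for 143 miRNAs (44.7%), which include 112 of the 134. The median log2 fold over all 320 was -0.042. Some rows are loci that give the same mature sequence, and the reads of such rows cannot be assigned to one locus. Counted once per mature sequence or name, where any of its rows passed, 56 of 296 were higher and 69 lower. In a fit with such rows summed before the test, 62 of 296 were higher and 61 lower. With number 8 kept under its label, 119 of 320 passed, 108 of them among the 134.

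**Figure D1:**
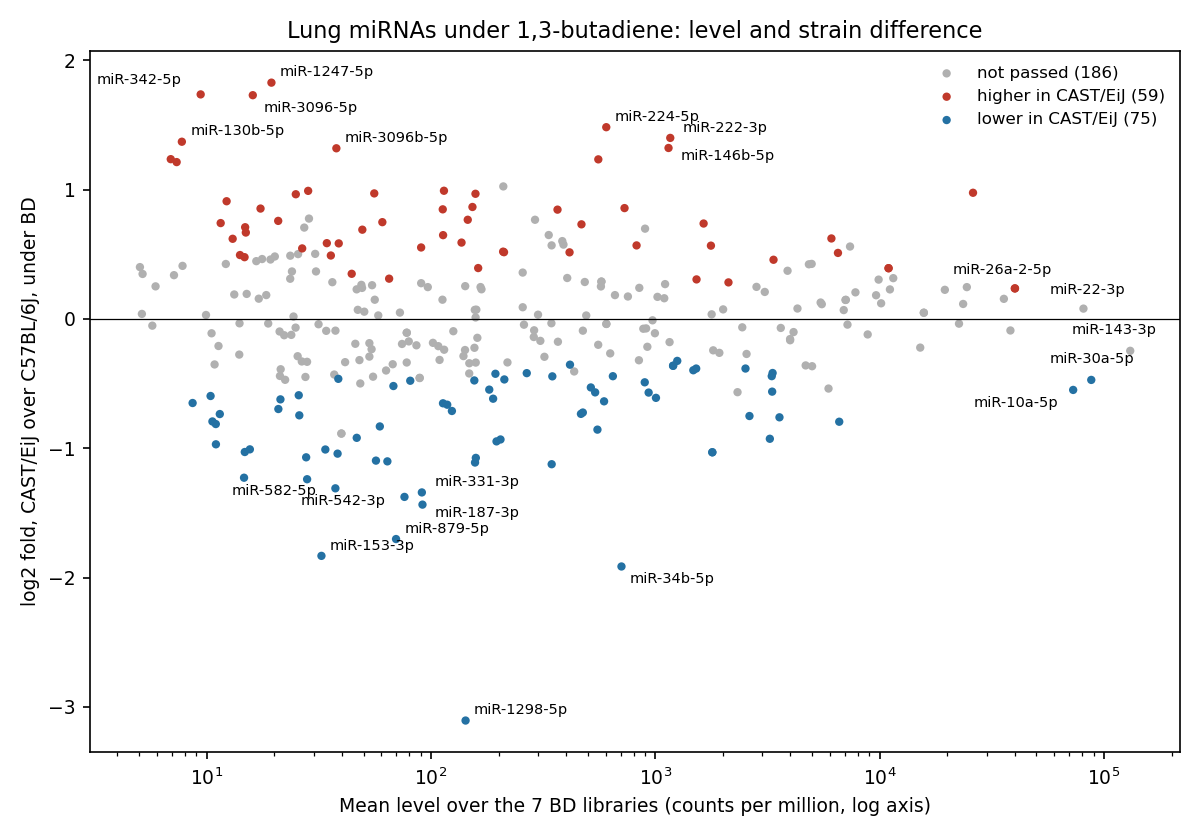
Mean level of each of the 320 miRNAs over the 7 BD libraries (CPM, log axis) against its log2 fold, CAST/EiJ over C57BL/6J, under BD. Red points passed as higher in CAST/EiJ (59), blue points as lower (75), and grey points did not pass (186). The lowest point is miR-1298-5p, at -3.11, and the 5 most abundant miRNAs lie within 0.6 of the zero line.

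Values per library are given below in CPM, in the order of title numbers 7, 9 and 10 for CAST/EiJ and 15 to 18 for C57BL/6J. The miRNA with the largest difference was miR-1298-5p, encoded within the serotonin receptor gene Htr2c (GRCm38.p6 chrX:147064918-147064939, plus strand). It had 32.1, 22.9 and 24.6 CPM in CAST/EiJ, against 229, 255, 208 and 227 CPM in C57BL/6J. This is 8.61-fold lower in CAST/EiJ (log2 fold -3.11 ± 0.17 SE, adjusted p 1.84e-11), with a wide gap between the strains and little spread within either. Number 8 had 199.9 CPM, and with it kept the log2 fold was -1.71.

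The next lowest miRNA in CAST/EiJ was miR-34b-5p, encoded on chromosome 9 and known as a p53 target and a miRNA of ciliated airway cells. It had 281, 263 and 276 CPM in CAST/EiJ, against 993, 1057, 1195 and 879 CPM in C57BL/6J (3.77-fold lower, log2 fold -1.91 ± 0.23 SE, adjusted p 3.76e-06). miR-153-3p, best known from neurons and endocrine cells and encoded within Ptprn2, had 12.03, 12.8 and 15.1 CPM in CAST/EiJ, against 42.9, 62.0, 54.6 and 28.0 CPM in C57BL/6J (log2 fold -1.83 ± 0.23 SE, adjusted p 6.26e-06). In both, every CAST/EiJ library lay below every C57BL/6J library, and number 18 was the lowest of its group. miR-879-5p, encoded within Elapor2 on chromosome 5, had 27.5, 33.0 and 31.4 CPM in CAST/EiJ, against 114, 100.3, 113 and 69.4 CPM in C57BL/6J (log2 fold -1.70 ± 0.17 SE, adjusted p 2.5e-07). miR-187-3p had 46.6, 38.3 and 54.4 CPM in CAST/EiJ, against 119, 151.97, 127 and 104.04 CPM in C57BL/6J (log2 fold -1.44 ± 0.24 SE, adjusted p 0.000158). Neither of these pairs of ranges overlapped.

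Of the remaining large decreases in CAST/EiJ, miR-542-3p had the tightest C57BL/6J group. This member of the X-linked cluster of miR-322 and miR-503 had 43.8, 41.3 and 34.2 CPM in CAST/EiJ, against 105.7, 100.05, 108 and 100.4 CPM in C57BL/6J (2.60-fold lower, log2 fold -1.38 ± 0.16 SE, adjusted p 2.28e-06). miR-331-3p had 48.7, 49.2 and 48.1 CPM in CAST/EiJ, against 141, 197, 99.9 and 53.2 CPM in C57BL/6J (log2 fold -1.34 ± 0.29 SE, adjusted p 0.00159). The CAST/EiJ libraries were almost equal here, while C57BL/6J number 18 came close to them. miR-582-5p, encoded within the phosphodiesterase gene Pde4d, had 21.0, 18.02 and 22.2 CPM in CAST/EiJ, against 54.7, 63.9, 51.8 and 30.7 CPM in C57BL/6J (log2 fold -1.31 ± 0.21 SE, adjusted p 0.000104).

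Among the miRNAs higher in CAST/EiJ, miR-1247-5p led. It lies on chromosome 12 near the imprinted Dlk1-Dio3 domain and had 29.3, 34.2 and 35.4 CPM in CAST/EiJ, against 7.77, 12.1, 7.32 and 10.04 CPM in C57BL/6J (3.55-fold, log2 fold 1.83 ± 0.17 SE, adjusted p 2.41e-07). miR-342-5p, whose hairpin lies in an intron of the actin regulator Evl and is expressed in leukocytes, had 13.3, 16.9 and 17.1 CPM in CAST/EiJ, against 5.14, 5.42, 3.73 and 4.26 CPM in C57BL/6J (log2 fold 1.74 ± 0.24 SE, adjusted p 1.9e-05). In each of these the lowest CAST/EiJ library was over the highest C57BL/6J library by more than the whole spread of the C57BL/6J group. miR-3096-5p had 26.8, 27.4 and 24.6 CPM in CAST/EiJ, against 6.14, 8.13, 5.19 and 13.99 CPM in C57BL/6J (log2 fold 1.73 ± 0.27 SE, adjusted p 9.01e-05). miR-3096b-5p, from a like-named hairpin whose reads may not be separable from it, differed in the same direction (log2 fold 1.32 ± 0.21 SE, adjusted p 0.000104).

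At higher levels stood miR-222-3p, miR-146b-5p and miR-224-5p. The oncogenic miR-222-3p, a regulator of the cell cycle inhibitor p27 and of KIT, had 1923, 1811 and 1686 CPM in CAST/EiJ, against 576, 618, 538 and 1007 CPM in C57BL/6J (2.64-fold, log2 fold 1.40 ± 0.15 SE, adjusted p 1.45e-06). Its neighbour on the X chromosome with the same seed, miR-221-3p, had 863, 908 and 879 CPM in CAST/EiJ, against 928, 1135, 779 and 875 CPM in C57BL/6J (log2 fold -0.073, adjusted p 0.664). The ranges are apart for miR-222-3p, with number 18 the nearest to CAST/EiJ, and overlap for miR-221-3p. miR-146b-5p, a feedback regulator of innate immune signalling, had 1859, 1738 and 1631 CPM in CAST/EiJ, against 442, 783, 811 and 750.5 CPM in C57BL/6J (log2 fold 1.32 ± 0.38 SE, adjusted p 0.0115). miR-224-5p, from the GABA receptor gene Gabre on the X chromosome, had 853, 920.3 and 1091 CPM in CAST/EiJ, against 285, 401, 295 and 385 CPM in C57BL/6J (log2 fold 1.48 ± 0.40 SE, adjusted p 0.00753). Every CAST/EiJ library was more than 2-fold over the highest C57BL/6J library in both. miR-130b-5p, the passenger arm of a miR-130 family hairpin, had 14.2, 11.3 and 9.53 CPM in CAST/EiJ, against 4.26, 3.39, 3.99 and 7.60 CPM in C57BL/6J (log2 fold 1.37 ± 0.31 SE, adjusted p 0.00166).

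**Figure D2:**
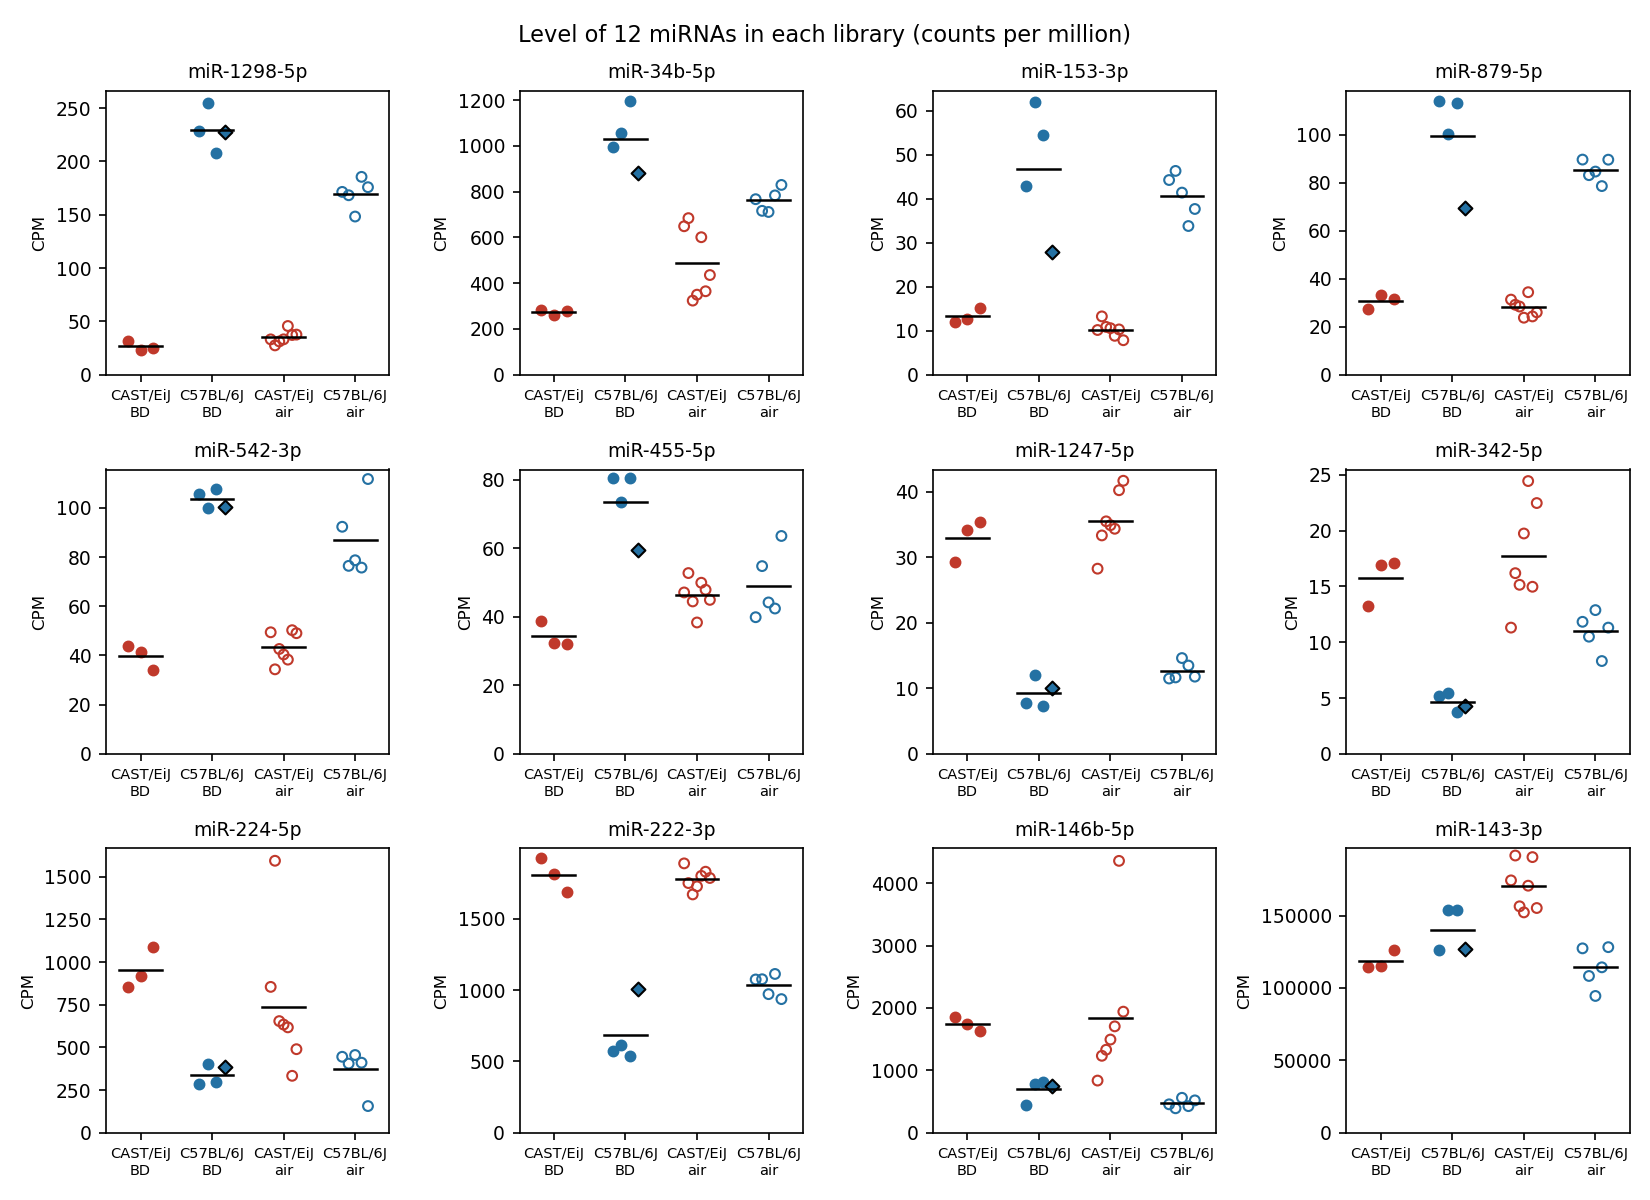
CPM of 12 miRNAs in each library, each panel on an axis from 0. Red points are CAST/EiJ and blue points C57BL/6J, filled under BD and open in clean air, the line is the group mean, and the black-edged diamond is C57BL/6J BD number 18. In miR-1298-5p, miR-153-3p, miR-879-5p and miR-1247-5p the strains are apart under BD and in clean air, while in miR-455-5p they are apart under BD (32.2 to 38.9 CPM in CAST/EiJ and 59.6 to 80.6 CPM in C57BL/6J) and overlap in clean air.

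By the smallest p-values beyond these, miR-455-5p, miR-652-3p and miR-181c-5p were lower and miR-218-1-3p, miR-676-3p and miR-423-3p higher in CAST/EiJ. miR-455-5p, from a cartilage-associated hairpin, had 38.9, 32.3 and 32.2 CPM in CAST/EiJ, against 80.6, 73.6, 80.5 and 59.6 CPM in C57BL/6J (log2 fold -1.10 ± 0.16 SE, adjusted p 6.16e-05). miR-181c-5p had 1638, 2073 and 1960 CPM in CAST/EiJ, against 3281, 3242, 2953 and 3246 CPM in C57BL/6J (log2 fold -0.75 ± 0.12 SE, adjusted p 0.000116). Both show separate ranges. The log2 folds of the others were -1.12 for miR-652-3p, 1.21 for miR-218-1-3p, 0.97 for miR-676-3p and 0.86 for miR-423-3p, with adjusted p between 6.16e-05 and 0.00013.

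Depth and title number run with strain among the BD libraries: the CAST/EiJ numbers are 7 to 10 and the C57BL/6J numbers 15 to 18, so a difference between these series of numbers and the strain difference cannot be told apart within BD. C57BL/6J number 18, the one C57BL/6J BD library of a depth like that of CAST/EiJ, lay at a median of 0.372 of the way from the mean of numbers 15 to 17 to the CAST/EiJ mean over the 134 miRNAs, and beyond 0.5 of the way for 50 of them. A fit was made with number 18 as the only C57BL/6J BD library, its spread taken to be that of the other groups. There 127 of the 134 kept their sign. The median log2 fold of the 134 in the called direction was 0.51, against 0.72 with all 4 libraries. Number 18 had entered the calls and the CAST/EiJ libraries were the same, so neither value is an independent check. In that fit 28 of the 320 passed, 23 of them among the 134. An arm of 1 library loses calls through its size alone, so this count does not sort the 134 miRNAs. Of those described above that did not pass in it, the log2 folds were 0.89 for miR-3096-5p, 0.67 for miR-3096b-5p, 1.30 for miR-224-5p, 0.60 for miR-130b-5p, 1.19 for miR-146b-5p, 0.50 for miR-676-3p and 0.37 for miR-423-3p. For those lower in CAST/EiJ they were -0.15 for miR-331-3p, -0.61 for miR-582-5p and -0.73 for miR-652-3p. A covariate set the numbers 1 to 10 against all others. Within BD this split is the same as strain, so the covariate was estimated from the clean-air libraries. Of the C57BL/6J clean-air libraries only 1, replicate 1, has a number over 10. With the covariate 80 passed, 55 of them among the 134, and the median log2 fold of the 134 in the called direction was 0.55. Among the miRNAs described above, miR-224-5p (log2 fold 0.22, adjusted p 0.586) and miR-130b-5p (log2 fold 0.73, adjusted p 0.147) did not pass with it. Clean-air C57BL/6J replicate 1 was low in miR-224-5p, at 156 CPM, where the next library had 405 CPM. Whether the clean-air estimate holds for the BD libraries cannot be told. Leaving out any 1 of the 19 libraries ended none of the 22 calls chosen by size or p. Those calls were chosen as the strongest in the same libraries, so this is no independent check of them.

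Grouped by function or genomic cluster, the list with the lowest median was that of miR-34 and miR-449. The counts of every list stand beside the 18.4% of all 320 miRNAs that were higher and the 23.4% that were lower in CAST/EiJ, and they count rows of the table. Counted once per mature sequence or name, those lower were 2 of 5 for miR-29, 4 of 14 for the miR-17 to 92 list, 3 of 10 for the list of miR-15 and miR-103, and 4 of 9 for miR-23/24/27, and those higher were 3 of 11 for miR-30. Of its 5 measured members 3 were lower in CAST/EiJ, none was higher, and the median log2 fold was -1.07, beside -0.042 over all miRNAs. Besides miR-34b-5p, its other arm miR-34b-3p had 118, 76.6 and 95.7 CPM in CAST/EiJ, against 162, 206, 220.1 and 230.3 CPM in C57BL/6J (log2 fold -1.07 ± 0.20 SE, adjusted p 0.000346). miR-34a-5p, the p53-induced member that is expressed in most tissues, had 86.4, 95.0 and 102.5 CPM in CAST/EiJ, against 179, 218, 270.1 and 148 CPM in C57BL/6J (log2 fold -1.11 ± 0.24 SE, adjusted p 0.00122). All 3 have separate ranges. miR-449a-5p and miR-449c-5p, from an intron of the ciliogenesis gene Cdc20b, did not pass. miR-449a-5p had 381, 207 and 177 CPM in CAST/EiJ, against 177, 198, 393 and 284 CPM in C57BL/6J (log2 fold -0.044, adjusted p 0.937). miR-449c-5p had 798, 352 and 283 CPM in CAST/EiJ, against 284, 326, 326 and 323 CPM in C57BL/6J (log2 fold 0.60, adjusted p 0.205), with number 7 well over all others. The call of miR-34a-5p ended with number 18 alone (log2 fold -0.67, adjusted p 0.237) and with the number covariate (log2 fold -0.62, adjusted p 0.092).

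Transcripts of multiciliated cells, from a gene list chosen after the miRNA results were seen and so no support for them, were lower in CAST/EiJ as well. In the mRNA libraries under BD, 5 of CAST/EiJ and 6 of C57BL/6J, 11 of 14 such genes were lower and 1 higher at an adjusted p under 0.05 (edgeR's quasi-likelihood test over 17377 genes), where 22.3% of all genes were lower and 20.4% higher. Their median log2 fold was -0.78. Foxj1, the master regulator of motile cilia, had a median of 34.1 CPM in CAST/EiJ (17.7 to 34.8) and 48.1 CPM in C57BL/6J (32.8 to 59.3), a log2 fold of -0.65 (adjusted p 0.0102). Dnah5, an outer dynein arm motor, had a median of 88.5 CPM in CAST/EiJ and 268 CPM in C57BL/6J (log2 fold -1.68, adjusted p 1.68e-06). Rsph1, a radial spoke protein, went the other way, at 38.2 CPM in CAST/EiJ and 17.95 CPM in C57BL/6J (log2 fold 1.22, adjusted p 6.59e-08). The summed level of the list was 327 to 509 CPM in CAST/EiJ and 666 to 1012 CPM in C57BL/6J. All 3 club cell genes of the list were lower in CAST/EiJ too, among them Scgb1a1, the secretoglobin of club cells, with a median of 4422 CPM in CAST/EiJ and 6115 CPM in C57BL/6J (adjusted p 0.00614). In such bulk tissue, fewer cells of a type and less RNA per cell cannot be told apart. What part the cell content has in the miRNA differences was not tested.

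**Figure D3:**
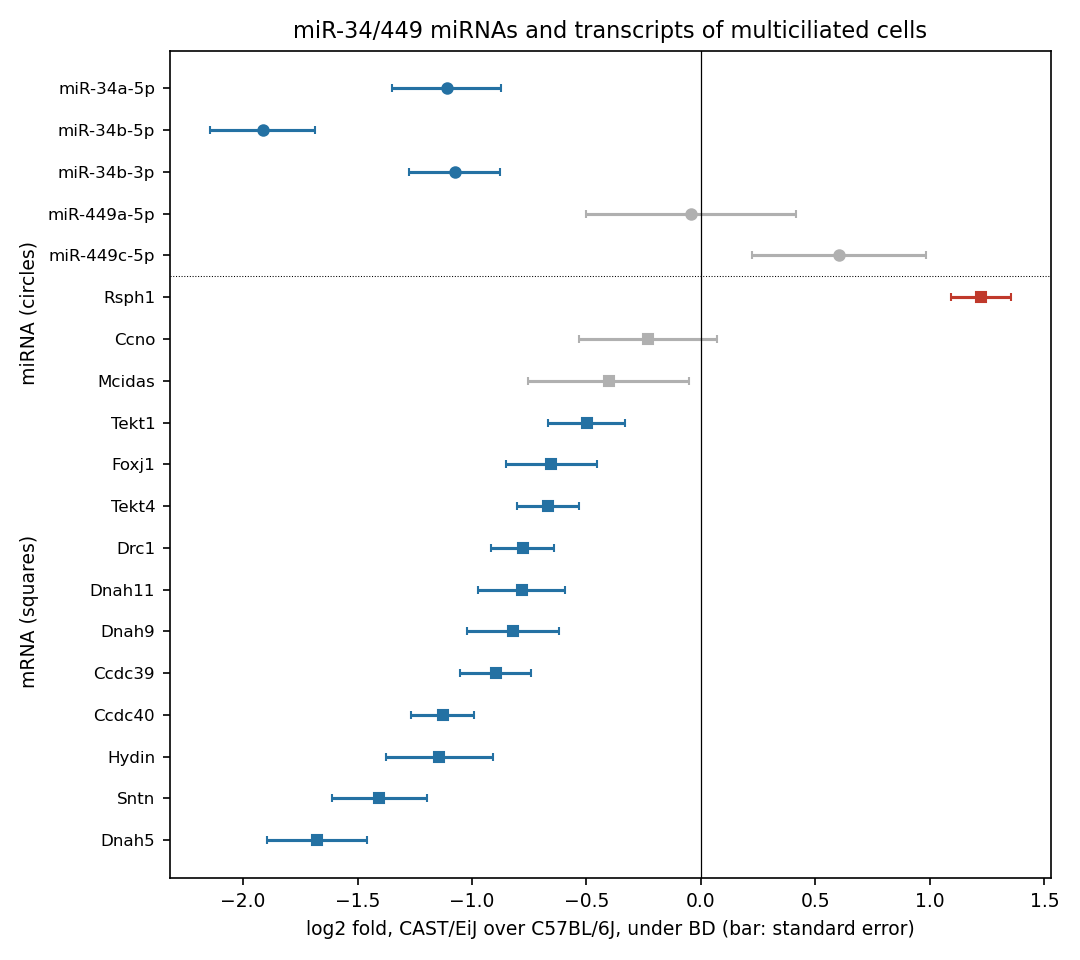
Log2 fold, CAST/EiJ over C57BL/6J, under BD, with its standard error, for the 5 measured miRNAs of miR-34 and miR-449 (circles) and 14 mRNAs of multiciliated cells (squares). Blue marks lower and red higher in CAST/EiJ, and grey did not pass. The miR-34 members and every mRNA but Rsph1 lie left of zero, of which Mcidas and Ccno did not pass, while miR-449a-5p and miR-449c-5p lie at -0.044 and 0.60.

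Among the lists with higher medians, below miR-221 and miR-222 (0.77, 3 tested), was the imprinted Dlk1-Dio3 domain on chromosome 12. The miRNAs of this domain form a large cluster expressed from the maternal chromosome. Of its 45 rows in the table, 14 carry a value in every library and were tested, and these 14 had positive log2 folds. Of the 14, 7 were higher in CAST/EiJ, none was lower, and the median was 0.50. miR-434-3p had 188, 181 and 203 CPM in CAST/EiJ, against 96.7, 104.4, 103.1 and 144 CPM in C57BL/6J (log2 fold 0.77 ± 0.15 SE, adjusted p 0.000655). miR-411-5p had 136, 153 and 138 CPM in CAST/EiJ, against 80.0, 87.4, 87.8 and 109 CPM in C57BL/6J (log2 fold 0.65 ± 0.16 SE, adjusted p 0.00356). Number 18 was the highest C57BL/6J library in both and still under all of CAST/EiJ. On chromosome 12 as a whole, the domain included, 10 of 22 miRNAs were higher and 3 lower, beside 18.4% and 23.4% of all 320. The 7 higher miRNAs of the domain lie on this chromosome and the 3 lower lie outside the domain. The counts of the domain and of the chromosome are thus not separate. In the summed level of the 14, CAST/EiJ had 2746 to 3102 CPM and C57BL/6J 1554 to 2001 CPM. The other 31 rows were low and not tested, and their listing under BD leaned the other way. Of these, miR-127-5p, miR-341-3p, miR-376c-3p and miR-673-5p were listed in all 4 C57BL/6J BD libraries, number 18 included, and in none of the 3 CAST/EiJ BD libraries, at 12 to 34 counts. None of the 31 was listed in all of CAST/EiJ BD and none of C57BL/6J BD. A larger share of the C57BL/6J than of the CAST/EiJ BD libraries listed 20 of the 31, and 5 were listed the other way. In clean air a larger share of the CAST/EiJ libraries listed 22 and a larger share of the C57BL/6J libraries 2. The part that depth has in these listings was not tested.

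X-linked miRNAs went in both directions, 8 of 33 higher and 8 lower, near the shares of all 320 miRNAs (18.4% higher and 23.4% lower). In the cluster of miR-322 and miR-503, some members of which restrain the cell cycle, 3 of 8 were lower in CAST/EiJ and none was higher. The median log2 fold was -0.35. Besides miR-542-3p these were miR-322-3p (log2 fold -0.62 ± 0.11 SE, adjusted p 0.000346) and miR-450b-5p (log2 fold -0.65 ± 0.14 SE, adjusted p 0.00118). miR-322-3p had 151, 142 and 143 CPM in CAST/EiJ, against 226, 216, 191 and 257 CPM in C57BL/6J, with no overlap, while its other arm miR-322-5p did not pass (log2 fold -0.075, adjusted p 0.654). In the X-linked cluster within the chloride channel gene Clcn5, 1 of 7 was higher and 1 lower. These were miR-532-5p (log2 fold 0.52, adjusted p 0.0045) and miR-500-3p (log2 fold -0.59, adjusted p 0.0115). The call of miR-500-3p ended without number 7 (adjusted p 0.0648).

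Of 9 measured leukocyte miRNAs, 3 were higher in CAST/EiJ, none was lower, and the median log2 fold was 0.036, where 18.4% of all 320 miRNAs were higher and 23.4% lower. Those higher were miR-342-5p, miR-342-3p and miR-223-3p. miR-342-3p had 514, 472 and 486 CPM in CAST/EiJ, against 276, 365, 239.5 and 211 CPM in C57BL/6J (log2 fold 0.85 ± 0.19 SE, adjusted p 0.00203), with no overlap. miR-223-3p, the miRNA of neutrophils and macrophages, had 263, 288 and 215 CPM in CAST/EiJ, against 149.6, 171, 175 and 219 CPM in C57BL/6J (log2 fold 0.52 ± 0.15 SE, adjusted p 0.0115). Its ranges overlap at number 18, and its call ended without number 9 (adjusted p 0.071). The lymphocyte miRNA miR-150-5p was at like levels, with 1786, 1738 and 1899 CPM in CAST/EiJ, against 2296, 1204, 1398 and 2156 CPM in C57BL/6J (log2 fold 0.036, adjusted p 0.929). The pan-leukocyte miR-142-3p and miR-142-5p did not pass either (log2 folds -0.090 and -0.26), nor did the activation-linked miR-155-5p (log2 fold -0.40, adjusted p 0.125). Among leukocyte mRNAs, 5 of 12 were higher and 2 lower in CAST/EiJ, where 20.4% of all genes were higher and 22.3% lower. The granulocyte receptor Csf3r had a median of 40.0 CPM in CAST/EiJ and 8.16 CPM in C57BL/6J (log2 fold 1.90, adjusted p 0.00012), and the calprotectin genes S100a8 and S100a9 had log2 folds of 1.46 each. The T cell genes Cd3e (log2 fold -1.42) and Cd8a (log2 fold -1.16) were lower. The summed level of the leukocyte mRNAs was 8702 to 10077 CPM in CAST/EiJ and 5119 to 6275 CPM in C57BL/6J. Nearly all of that sum was Lyz2, a lysozyme gene of macrophages that alveolar type 2 cells also express, with 8484 to 9641 CPM in CAST/EiJ and 4864 to 5889 CPM in C57BL/6J. Without Lyz2 the sums overlapped, at 218 to 480.2 CPM in CAST/EiJ and 222.3 to 438 CPM in C57BL/6J. The pan-leukocyte Ptprc did not pass (log2 fold 0.12, adjusted p 0.589), nor did Cd79a and Ms4a1, which are expressed in B cells. The part of leukocyte content in the miRNA values was not tested.

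Of 7 inflammation-linked miRNAs 3 were higher in CAST/EiJ and none lower (median log2 fold 0.25). Besides miR-146b-5p these were miR-132-3p and miR-212-5p, which come from one cluster induced by CREB signalling. miR-132-3p had 88.8, 65.0 and 83.0 CPM in CAST/EiJ, against 48.9, 42.8, 49.9 and 46.2 CPM in C57BL/6J (log2 fold 0.75 ± 0.17 SE, adjusted p 0.00159). The ranges are separate. The relative of miR-146b-5p in the list, miR-146a-5p, did not pass (log2 fold -0.18, adjusted p 0.694). miR-212-5p averaged 34.8 ± 8.34 CPM in CAST/EiJ (SD, n = 3) and 17.6 ± 5.62 CPM in C57BL/6J (SD, n = 4), a log2 fold of 0.97 with adjusted p 0.0334 in edgeR's test. Its call ended without number 7, 10, 15 or 18 (adjusted p 0.0638 to 0.113).

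Of the miR-29 family, which targets collagens and other matrix genes, 3 of 6 members were lower in CAST/EiJ, none was higher, and the median log2 fold was -0.61. miR-29b-1-3p had 114, 128 and 142 CPM in CAST/EiJ, against 239, 302, 283 and 162 CPM in C57BL/6J (log2 fold -0.95 ± 0.20 SE, adjusted p 0.00108). miR-29a-3p (log2 fold -0.12, adjusted p 0.343) and miR-29c-3p (log2 fold -0.24, adjusted p 0.21), which carry the same seed, did not pass. Of the miR-23/24/27 clusters, 5 of 10 were lower and none higher (median log2 fold -0.33). miR-24-2-3p had 1010, 1080 and 1284 CPM in CAST/EiJ, against 2106, 2620, 2979 and 1486 CPM in C57BL/6J (log2 fold -1.03, adjusted p 0.0251). Its ranges are apart, but its call ended without number 7, 9, 16 or 17, with adjusted p between 0.0515 and 0.0853. miR-24-2-5p kept its call in every such fit (log2 fold -0.49, adjusted p 0.00279).

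The stromal list of miR-199 and miR-214 had 4 of 8 rows lower and none higher (median log2 fold -0.35). These 4 rows are 2 distinct mature miRNAs, since miR-199a-1-3p, miR-199a-2-3p and miR-199b-3p have one sequence. The other is miR-199b-5p (log2 fold -0.64, adjusted p 0.0104). In smooth muscle, miR-143-3p was the most abundant miRNA of all. It had 114212, 114906 and 125930 CPM in CAST/EiJ, against 126499, 154098, 153867 and 127006 CPM in C57BL/6J (log2 fold -0.25, adjusted p 0.0922). The ranges are apart by a narrow gap, and the test was not passed. Its cluster partner miR-145-5p had 2359, 2114 and 1942 CPM in CAST/EiJ, against 4113, 6119, 4376 and 1651 CPM in C57BL/6J (log2 fold -0.93, adjusted p 0.0371). Number 18 lies under all of CAST/EiJ here, the log2 fold was 0.35 with number 18 alone, and the call ended without number 7, 9, 10, 15, 16 or 17 (adjusted p 0.0623 to 0.128). No striated muscle miRNA (0 of 6) and no endothelial miRNA (0 of 2) passed. miR-126-3p, the main endothelial miRNA, averaged 24648 ± 1651 CPM in CAST/EiJ (SD, n = 3) and 22739 ± 1919 CPM in C57BL/6J (SD, n = 4). Among mRNAs, 1 of 5 smooth muscle genes was higher in CAST/EiJ, 3 of 4 endothelial genes were lower, and of 5 fibroblast genes none was called.

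Of 8 epithelial miR-200 family members 2 were lower in CAST/EiJ and none was higher, a share of lower members near the 23.4% of all miRNAs. miR-200c-3p, a repressor of the mesenchymal factors ZEB1 and ZEB2, had 423, 408 and 437 CPM in CAST/EiJ, against 555, 664, 750.5 and 536 CPM in C57BL/6J (log2 fold -0.57 ± 0.15 SE, adjusted p 0.00475). miR-200b-3p, with the same seed, had a log2 fold of 0.56 and did not pass (adjusted p 0.0796). miR-182-5p, of a sensory and epithelial cluster, had 7371, 7744 and 7748 CPM in CAST/EiJ, against 5426, 6553, 4148 and 3667 CPM in C57BL/6J (log2 fold 0.62 ± 0.15 SE, adjusted p 0.00247), with separate ranges. miR-375-3p, known from neuroendocrine and endocrine cells, had 637, 432 and 541 CPM in CAST/EiJ, against 738, 691, 721 and 766 CPM in C57BL/6J (log2 fold -0.44, adjusted p 0.0254). Its call ended without number 9 or 10 (adjusted p 0.0619 to 0.149). Of 3 neuroendocrine mRNAs 2 were higher in CAST/EiJ, at summed levels of 3.27 to 7.75 CPM in CAST/EiJ and 1.75 to 3.45 CPM in C57BL/6J.

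Erythroid miRNAs were mixed, with 1 of 5 higher and 2 lower. miR-451, an Argonaute-cut miRNA of red cells, had 4786, 4317 and 4848 CPM in CAST/EiJ, against 8392, 11264, 8357 and 4258 CPM in C57BL/6J (log2 fold -0.79 ± 0.22 SE, adjusted p 0.00786). Number 18 lies under CAST/EiJ, and with it alone the log2 fold was 0.11. miR-144-3p, from the same transcript, had a log2 fold of -0.53 (adjusted p 0.0313), and its call ended without number 7, 9, 16 or 17 (adjusted p 0.0524 to 0.115). miR-486-5p did not pass (log2 fold 0.15, adjusted p 0.43). Of 5 erythroid mRNAs 2 were lower and none higher, and their summed level was 2821 to 7117 CPM in CAST/EiJ and 6294 to 8225 CPM in C57BL/6J. The part of blood content was not tested.

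**Figure D4:**
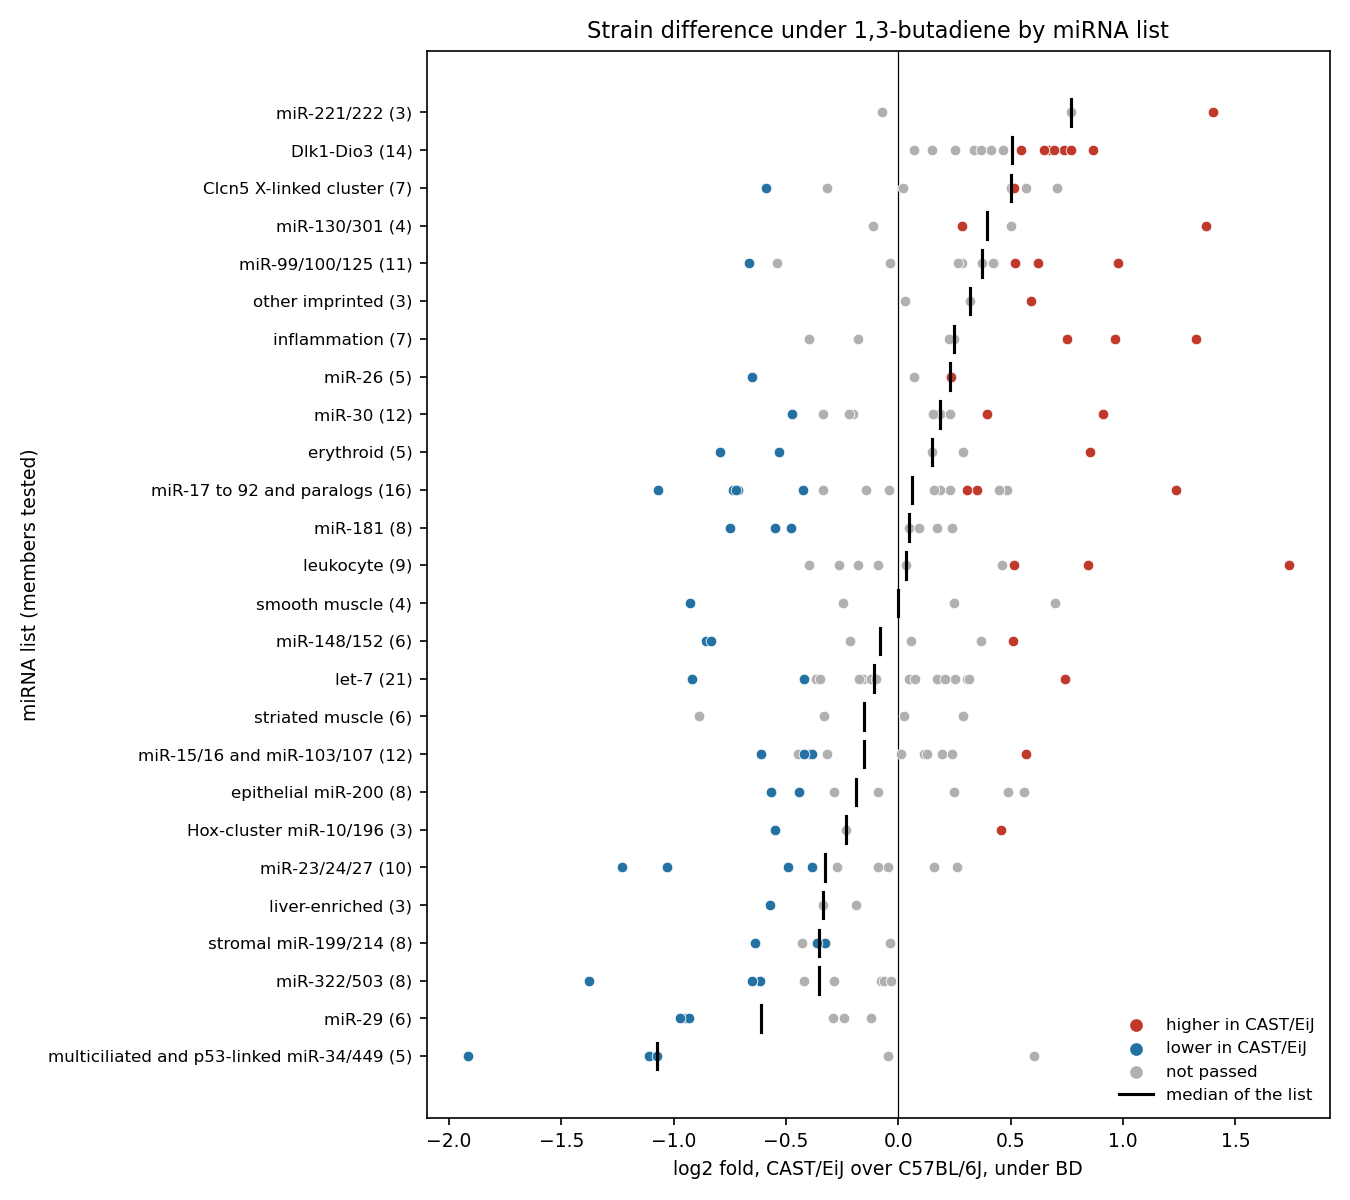
Log2 fold, CAST/EiJ over C57BL/6J, under BD for the tested members of each miRNA list (number tested in brackets). Red points passed as higher in CAST/EiJ, blue points as lower, grey points did not pass, and the black bar is the median of the list. All 14 points of Dlk1-Dio3 lie right of zero and all 6 of miR-29 lie left of it, with list medians of 0.50 and -0.61.

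The remaining lists held members in both directions or few calls. Of the oncogenic miR-17 to 92 cluster and its paralogs 3 of 16 were higher and 5 lower. miR-19b-1-3p, a member of that cluster, had 376, 324 and 313 CPM in CAST/EiJ, against 623, 618, 609.8 and 397 CPM in C57BL/6J (log2 fold -0.73 ± 0.15 SE, adjusted p 0.000825). Of the let-7 family, a set of abundant differentiation-linked miRNAs, 1 of 21 was higher and 2 lower. let-7i-3p had a log2 fold of -0.92 (adjusted p 0.00159). In the list of miR-15, miR-16, miR-103 and miR-107 1 of 12 was higher and 4 lower. The called pair of neighbours on chromosome 11 with one seed differed in opposite directions. miR-195-5p had 775, 752 and 794 CPM in CAST/EiJ, against 1216, 1413, 1074 and 1021 CPM in C57BL/6J (log2 fold -0.61 ± 0.12 SE, adjusted p 0.000655). miR-497-5p had 1073, 1078 and 888 CPM in CAST/EiJ, against 660.4, 460.1, 574 and 1039 CPM in C57BL/6J (log2 fold 0.57 ± 0.21 SE, adjusted p 0.034). Its ranges overlap, its log2 fold with number 18 alone was -0.061, and its call ended without number 7, 9, 15, 16, 17 or CAST/EiJ clean-air replicate 2 (adjusted p 0.0527 to 0.106).

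Of the family of miR-148 and miR-152, 1 of 6 was higher and 2 lower, and the pair with the same seed again went apart. miR-152-3p, from an intron of the coatomer gene Copz2, had 412, 352 and 368 CPM in CAST/EiJ, against 696, 655, 750.1 and 630.3 CPM in C57BL/6J (log2 fold -0.86 ± 0.16 SE, adjusted p 0.000346). miR-148a-3p had 7906, 7731 and 7935 CPM in CAST/EiJ, against 6452, 6881, 4593 and 4128 CPM in C57BL/6J (log2 fold 0.51 ± 0.19 SE, adjusted p 0.034). The call of miR-148a-3p ended without number 7, 9, 10, 17 or 18 (adjusted p 0.072 to 0.0977), and miR-148b-3p did not pass (log2 fold -0.22, adjusted p 0.148). Of miR-30 members 4 of 12 were higher and 1 lower, of miR-99, miR-100 and miR-125 members 3 of 11 higher and 1 lower, of miR-181 members 3 of 8 lower and none higher, of miR-26 members 2 of 5 higher (loci of one mature sequence) and 1 lower, of miR-130 and miR-301 members 2 of 4 higher and none lower, and of miR-221 and miR-222 members 1 of 3 higher. miR-125a-5p had 32060, 34218 and 42500 CPM in CAST/EiJ, against 15997, 19612, 15924 and 22181 CPM in C57BL/6J (log2 fold 0.98 ± 0.29 SE, adjusted p 0.013). Its call ended without number 10 (adjusted p 0.0551). Of liver-enriched miRNAs 1 of 3 was lower, of Hox-cluster miRNAs 1 of 3 was higher and 1 lower, of other imprinted miRNAs 1 of 3 was higher, of neuroendocrine miRNAs 2 of 2 were lower, the hypoxia list had 0 of 1 called, and the Sfmbt2 cluster had no member listed in every library.

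The 5 most abundant miRNAs had log2 folds of -0.55 to 0.24, and some of them passed the test. Besides miR-143-3p these were miR-22-3p, miR-30a-5p, miR-10a-5p and miR-26a-2-5p. miR-22-3p had 84257, 87776 and 78717 CPM in CAST/EiJ, against 75290, 73942, 88189 and 78828 CPM in C57BL/6J (log2 fold 0.080, adjusted p 0.504). miR-30a-5p had 65171, 77654 and 72852 CPM in CAST/EiJ, against 108062, 109635, 94532 and 86457 CPM in C57BL/6J (log2 fold -0.47 ± 0.12 SE, adjusted p 0.00394), and its ranges are apart. miR-26a-2-5p had 42912, 45341 and 43531 CPM in CAST/EiJ, against 35224, 40728, 37252 and 35929 CPM in C57BL/6J (log2 fold 0.24 ± 0.078 SE, adjusted p 0.0228). Its call ended without number 9 or 15 (adjusted p 0.0616 to 0.0797). miR-10a-5p averaged 57637 ± 6840 CPM in CAST/EiJ (SD, n = 3) and 84317 ± 28102 CPM in C57BL/6J (SD, n = 4), with overlapping ranges. Its log2 fold was -0.55 (adjusted p 0.0168, edgeR's test), and the call ended without number 7 or 16 (adjusted p 0.0679 to 0.0901).

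Both arms were tested for 94 hairpins. The arms differed in the same direction in 60 of these, both arms passed in 18, and exactly 1 arm passed in 38. Of the 18, 14 had both arms in the same direction. In the other 4, which were mir-18a, mir-26a-2, mir-340 and mir-676, the arms differed in opposite directions. The reads of miR-26a-2-5p cannot be assigned to mir-26a-2, since miR-26a-1-5p has the same sequence, so opposite arms are not shown for that hairpin. Among those with the same direction, mir-24-1, mir-24-2, mir-30c-1 and mir-199b also have an arm whose sequence another locus gives. miR-676-3p had 209, 223 and 225 CPM in CAST/EiJ, against 109, 109, 77.6 and 153 CPM in C57BL/6J (log2 fold 0.97 ± 0.16 SE, adjusted p 0.000104). miR-676-5p had 10.8, 9.76 and 8.74 CPM in CAST/EiJ, against 17.1, 22.2, 17.3 and 23.1 CPM in C57BL/6J (log2 fold -1.01 ± 0.18 SE, adjusted p 0.000228). Neither arm's ranges overlap. Likewise miR-18a-3p was higher (log2 fold 1.24 ± 0.28 SE, adjusted p 0.00159) and miR-18a-5p lower in CAST/EiJ (log2 fold -1.07 ± 0.25 SE, adjusted p 0.00257). miR-18a-3p averaged 10.1 ± 1.06 CPM in CAST/EiJ (SD, n = 3) and 4.49 ± 1.68 CPM in C57BL/6J (SD, n = 4).

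In clean air, from other libraries, 127 of the 320 miRNAs (39.7%) differed between the strains, 68 higher (21.2%) and 59 lower (18.4%) in CAST/EiJ. Of the miRNAs called under BD 49.3% were also called in clean air, and of those called in clean air 52.0% were also called under BD. These 66 went in the same direction in 60 cases and in opposite directions in 6, which were miR-103-1-3p, miR-103-2-3p, miR-144-3p, miR-497-5p, miR-500-3p and miR-671-3p. Across the 320 miRNAs the log2 folds correlated with Pearson's r of 0.496 and Spearman's rho of 0.377, as a description of points that share libraries. A further 68 were called under BD alone and 61 in clean air alone. The difference between the strain differences, tested as an interaction, passed for 89 miRNAs (27.8%), 40 of them (12.5%) with the higher log2 fold under BD and 49 (15.3%) with the lower. Among the 68 called under BD alone, 42 passed it. These counts depend on the clean-air libraries. Without those numbered over 100 the interaction passed for 12, of which 10 were among the 89. With the number covariate it passed for 9, of which 4 were among the 89.

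Some of the largest differences had log2 folds of like size under BD and in clean air. The log2 fold of miR-153-3p was -1.83 under BD and -1.98 in clean air, that of miR-879-5p -1.70 under BD and -1.60 in clean air, that of miR-187-3p -1.44 under BD and -1.24 in clean air, that of miR-542-3p -1.38 under BD and -0.996 in clean air, and that of miR-1247-5p 1.83 under BD and 1.49 in clean air. None of these 5 passed the interaction (adjusted p 0.155 to 0.739). miR-1298-5p was lower in CAST/EiJ in both, with a larger gap under BD (log2 folds -3.11 under BD and -2.27 in clean air, interaction adjusted p 0.00532). Without the clean-air numbers over 100 that interaction did not pass (adjusted p 0.0851). Of the 14 Dlk1-Dio3 miRNAs 13 were higher in clean air (median log2 fold 0.98), and of the 8 of the miR-322 and miR-503 cluster all were lower (median log2 fold -0.87).

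Others differed in BD more than in clean air. miR-34b-5p averaged 273 ± 9.45 CPM in CAST/EiJ under BD (SD, n = 3) and 487 ± 153 CPM in CAST/EiJ in clean air (SD, n = 7). In C57BL/6J it averaged 1031 ± 132 CPM under BD (SD, n = 4) and 761 ± 49.3 CPM in clean air (SD, n = 5). Its interaction was -1.27 on the log2 scale (adjusted p 0.00429, edgeR) and also passed without the clean-air numbers over 100 (-1.72, adjusted p 5.77e-06) and with the number covariate (-1.79, adjusted p 0.00565). miR-455-5p had a log2 fold of -1.10 under BD and -0.071 in clean air (interaction adjusted p 0.00305). Its values under these alternatives are not given here. miR-342-5p had 1.74 under BD and 0.71 in clean air (interaction adjusted p 0.016), and its interaction passed under both of those alternatives too (adjusted p 0.0227 and 0.0386). The interactions of miR-34a-5p (-1.40, adjusted p 0.00429), miR-130b-5p (1.97, adjusted p 0.00305) and miR-582-5p (-1.12, adjusted p 0.0054) did not pass with the number covariate.

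Of the 9 leukocyte miRNAs 8 passed the interaction, where 27.8% of all 320 did, and the median log2 fold of the list was 0.036 under BD and -0.52 in clean air, where 1 was higher and 4 were lower in CAST/EiJ. miR-150-5p averaged 1808 ± 82.4 CPM in CAST/EiJ and 1763 ± 543 CPM in C57BL/6J under BD (SD, n = 3 and 4), and 1562 ± 472 CPM in CAST/EiJ and 4245 ± 829 CPM in C57BL/6J in clean air (SD, n = 7 and 5). Its interaction was 1.48 (adjusted p 0.00532, edgeR). miR-142-5p averaged 1732 ± 58.2 CPM in CAST/EiJ and 2077 ± 135 CPM in C57BL/6J under BD, and 1452 ± 292 CPM in CAST/EiJ and 3364 ± 691 CPM in C57BL/6J in clean air, with an interaction of 0.95 (adjusted p 0.00541). Without the clean-air numbers over 100 both passed (adjusted p 0.0244 for miR-150-5p and 0.00706 for miR-142-5p), and with the number covariate neither did (adjusted p 0.461 and 0.425). The smooth muscle miR-143-3p averaged 118349 ± 6574 CPM in CAST/EiJ and 140367 ± 15723 CPM in C57BL/6J under BD, and 170095 ± 16409 CPM in CAST/EiJ and 114525 ± 14072 CPM in C57BL/6J in clean air. Its interaction was -0.82 (adjusted p 0.00305) and also passed with the number covariate (-0.84, adjusted p 0.024). Its value without the clean-air numbers over 100 is not given here.

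**Figure D5:**
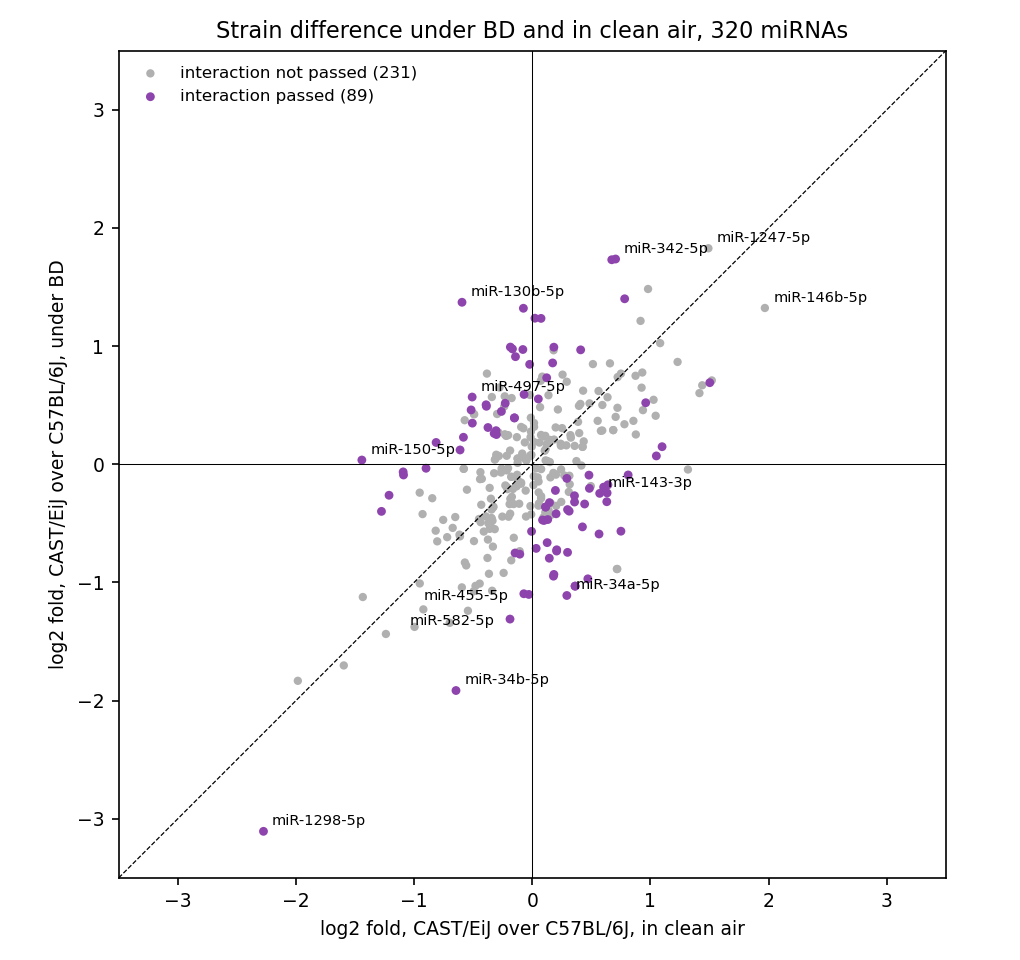
Log2 fold, CAST/EiJ over C57BL/6J, under BD (vertical axis) against that in clean air (horizontal axis) for the 320 miRNAs, with the line of equal folds dashed. Purple points passed the interaction (89) and grey points did not (231). miR-1247-5p lies near the dashed line, miR-1298-5p, miR-34b-5p, miR-455-5p and miR-34a-5p below it, and miR-150-5p and miR-130b-5p above it.

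Intronic miRNAs were set beside the mRNA of the gene whose span holds them. The strand of the gene was not compared, so a pair need not share a transcript. Of 41 host genes tested, 12 differed between the strains under BD, 5 higher and 7 lower in CAST/EiJ, where 42.7% of all genes did. For the 61 pairs of a measured miRNA and its host, from 31 hosts, both passed in 10, the miRNA alone in 18, the host alone in 9 and neither in 24. In 9 of the 10 the directions were the same. These pairs are not independent: Evl, Copz2 and Dnm1 each entered with both arms of one hairpin, and Clcn5 with miR-532-5p and miR-500-3p. For the 56 pairs whose mature miRNA has one locus in the table, both passed in 9, with the same direction in 8. Copz2 had 5.65 to 8.56 CPM in CAST/EiJ and 15.6 to 17.8 CPM in C57BL/6J (log2 fold -1.19, adjusted p 1.69e-09), beside log2 folds of -0.86 for miR-152-3p and -0.83 for miR-152-5p. Evl had a median of 37.6 CPM in CAST/EiJ and 30.5 CPM in C57BL/6J (log2 fold 0.35, adjusted p 0.00717), beside 1.74 for miR-342-5p and 0.85 for miR-342-3p. Pde2a, a phosphodiesterase, had a log2 fold of 0.63 (adjusted p 0.00206), beside 0.59 for miR-139-5p (adjusted p 0.0277). The call of miR-139-5p ended without number 7, 9 or 16 (adjusted p 0.0529 to 0.128). The imprinted Mest (0.35) stood beside miR-335-3p (0.59, adjusted p 0.0164, lost without number 10 at 0.0633). The dynamin Dnm1 (-0.62) stood beside miR-199b-5p (-0.64). The other arm, miR-199b-3p (-0.36, adjusted p 0.0251), shares its sequence with the miR-199a loci, so its reads cannot be assigned to Dnm1, and its call ended without number 7, 10, 18 or CAST/EiJ clean-air replicate 2 (adjusted p 0.0525 to 0.096). The opposite pair was Clcn5 (0.41, adjusted p 0.000254) and miR-500-3p. Slit2 (-0.17, adjusted p 0.152), Gabre (-0.37, adjusted p 0.155) and Pde4d (-0.14, adjusted p 0.349) did not pass, beside log2 folds of 1.21 for miR-218-1-3p, 1.48 for miR-224-5p and -1.31 for miR-582-5p.

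The 160 rows without a value in every library were not tested. Of these, 17 were listed in all 4 C57BL/6J BD libraries and in none of the 3 CAST/EiJ BD libraries, and 1, miR-196b-5p, was listed the other way, at 16 to 27 counts. The smallest listed value is 10.5, so a row without a value may be low rather than absent, and no fold was computed. The most abundant of the 17 was miR-34c-5p, the partner of miR-34b on one transcript. Its counts were 83507.5, 80067.5, 109921.5 and 46280.6 in C57BL/6J numbers 15 to 18, and miR-34c-3p had 934, 1288, 1178 and 477. Both were listed in all 9 C57BL/6J libraries and in none of the 11 labelled CAST/EiJ, clean air included. Number 8, whose profile over the 320 is that of C57BL/6J and which had 712 CPM of miR-34b-5p, is among those 11, so the listing of miR-34c followed the label and not the profile. What the strain level of miR-34c was cannot be told from the table. The 320 rows held 98.5 to 99.0% of the counts in C57BL/6J BD libraries and 99.95 to 99.97% in the libraries labelled CAST/EiJ BD. Of the 17, 9 were listed in number 8. These include miR-1264-3p, miR-1298-3p, miR-1912-3p and miR-448-3p, the last 3 of which RefSeq places within Htr2c beside miR-1298-5p. miR-448-3p had 54 to 129 counts in C57BL/6J.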

How the data were processed

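Small RNA and mRNA were sequenced from lungs of male CAST/EiJ and C57BL/6J mice under BD or clean air. The small RNA table holds estimated counts per mature miRNA, as the authors deposited them: 64.1% of values are whole (within 1e-06) and the rest are fractions, whose origin is not given. The mRNA table holds deposited counts per gene, with 21 genes that lack a value in CAST/EiJ left out by using the 23872 complete rows of 23893. The submitters' processing notes name Bowtie and GSNAP and the build mm9; versions, the counting tool and its settings are not given in the sources used here. The effect of strain mismatches to this build was not tested.

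Estimated counts were rounded to whole numbers. edgeR 4.0.16 (R 4.3.3) was fitted with TMM scaling, robust dispersions and a mean per group to the 320 miRNAs listed in all 19 libraries used, and likewise to 17377 genes after filtering, in 23 mRNA libraries of 10601756 to 50001571 counts. Number 8 was left out of both. CPM use each library's total over the tested miRNAs or genes, scaled by its TMM factor. Fold changes are CAST/EiJ over C57BL/6J. A call is a Benjamini-Hochberg adjusted p under 0.05 in the quasi-likelihood test. The scripts were tested on simulated data.

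The text names, among calls with at least 5 CPM in a group and separate ranges, 8 by the highest fold, 8 by the lowest fold and 6 more by p-value, then as many as 2 per list and direction, and the 5 of highest level. Other miRNAs named, and the mRNAs of cell types, were chosen after their values were seen. The members and lists were chosen with earlier results of these data known. Sequences matched 258 of the 320 by name. Alternatives covered scaling, filters, DESeq2 1.42.0, limma-voom (limma 3.58.1), number 8, the title numbers, depth, the groups fitted and each library left out. The ATAC-seq samples were not analysed here.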

Additional observations from a re-analysis of the deposited data

Results flagged for a closer look

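Among the named miRNAs and the library totals, 240 sets of 4 to 7 libraries of 1 group were looked at for a library far from the others, and 21 stood out, where chance marks about 1 in 20. Clean-air C57BL/6J replicate 1 was high in miR-449a-5p (208 CPM) and miR-449c-5p (276 CPM). It was low in miR-224-5p (156 CPM), miR-532-5p (271 CPM), miR-335-3p (60.3 CPM) and miR-139-5p (22.2 CPM). Clean-air CAST/EiJ replicate 4 was high in miR-146b-5p (4357 CPM), miR-132-3p (129 CPM) and miR-24-2-3p (2885 CPM), replicate 7 in miR-224-5p (1594 CPM) and miR-652-3p (229.0 CPM), and replicate 3 in miR-152-5p (50.3 CPM). Clean-air C57BL/6J replicate 2 was high in miR-218-1-3p (6.76 CPM). Under BD, C57BL/6J number 18 was high in miR-222-3p (1007 CPM) and miR-434-3p (144 CPM), low in miR-19b-1-3p (397 CPM) and low in its total, at 3146118 counts (3.15 on the scale of 1e+06 counts). Number 15 was low in miR-449c-5p (284 CPM) and miR-146b-5p (442 CPM), number 16 high in miR-486-5p (8505 CPM) and number 17 low in miR-181c-5p (2953 CPM).

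The strain difference under BD minus that in clean air, on the log2 scale, passed the interaction test of edgeR for 37 of the named miRNAs. It was above 0, the log2 fold of CAST/EiJ over C57BL/6J being higher under BD than in clean air, for miR-130b-5p (1.97), miR-150-5p (1.48), miR-3096b-5p (1.40), miR-18a-3p (1.21) and miR-125a-5p (1.14). It was also above 0 for miR-497-5p (1.08), miR-3096-5p (1.06), miR-342-5p (1.03), miR-142-3p (1.00) and miR-142-5p (0.95). Smaller values above 0 were those of miR-155-5p (0.88), miR-342-3p (0.87), miR-223-3p (0.75), miR-423-3p (0.69) and miR-335-3p (0.66). The list goes on with miR-222-3p (0.62) and miR-676-3p (0.56). It was below 0 for miR-29c-5p (-1.44), miR-34a-5p (-1.40), miR-24-2-3p (-1.39), miR-34b-5p (-1.27) and miR-500-3p (-1.16). Next came miR-29b-1-3p (-1.13), miR-582-5p (-1.12), miR-455-5p (-1.02), miR-144-3p (-0.95) and miR-19b-1-3p (-0.94). Then came miR-451 (-0.94), miR-29c-3p (-0.88), miR-1298-5p (-0.83), miR-143-3p (-0.82) and miR-103-1-3p (-0.71). After these were miR-181c-5p (-0.61), miR-200c-3p (-0.56), miR-30a-5p (-0.56), miR-199b-3p (-0.47) and miR-29a-3p (-0.41). The effect of the clean-air libraries numbered over 100 on the number of such calls is given with the processing.

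Of the rows outside the test, 17 were listed in every C57BL/6J BD library and in no CAST/EiJ BD library of those compared. The lowest counts in C57BL/6J were those of miR-127-5p (17), miR-16-1-3p (24), miR-181b-1-3p (22), miR-467d-5p (14), miR-1264-3p (23) and miR-1298-3p (27). Further lowest counts were those of miR-1912-3p (15), miR-341-3p (12), miR-34c-3p (477), miR-34c-5p (46280.6), miR-448-3p (54) and miR-489-3p (24). The others were miR-598-3p (28), miR-106a-5p (10.5), miR-376c-3p (12), miR-673-5p (16) and miR-296-5p (16). miR-196b-5p was listed in every CAST/EiJ BD library compared, with a lowest count of 16, and in none of C57BL/6J. These differences in listing were not tested.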

How the results depend on the processing

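The count of 134 miRNAs under BD stayed within 1.5 times of itself, at 112 to 145, with other scaling, unlisted values as 0, DESeq2, limma-voom, number 8 kept, clean-air numbers over 100 left out, thinning, the BD groups alone and, added after the data were seen, loci summed or the miRNAs listed in the 7 BD libraries. With the scaling by median of ratios the split was 68 higher and 66 lower. It moved to 74 (of 182 tested) with a mean of at least 100 CPM, to 80 with the title-number covariate and to 28 with number 18 as the only C57BL/6J BD library, whose spread is then taken to be that of the other groups. Leaving out 1 library gave 94 to 153. The 74 calls with at least 100 CPM were 40.7% of the 182, near the 41.9% of the main fit, so there the count moved and the share hardly did. In clean air the count was 71 with at least 100 CPM (39% of 182, beside 39.7% of 320 in the main fit). It was 73 without numbers over 100, and 111 to 138 on leaving out 1 library. The interaction count was 56 with at least 100 CPM, 9 with the covariate, 12 without numbers over 100 and 10 with number 18 alone. Leaving out 1 library gave 58 (18.1% of the 320, without CAST/EiJ number 7) to 1.1e+02 (32.8%, without C57BL/6J number 18). The interaction count of 56 with at least 100 CPM was 30.8% of 182, beside 27.8% of 320 in the main fit. Fewer tested miRNAs or libraries enter the filtered and left-out settings. Beyond that the cause was not tested.

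Of the named miRNAs, log2 folds changed sign with number 18 alone for miR-145-5p (0.35), miR-451 (0.11) and miR-497-5p (-0.061), and with the covariate for miR-139-5p (-0.020) and miR-212-5p (-0.0035); the cause was not tested. No paired analysis was possible because the groups share no title numbers, and the replicate numbers follow accession order. Counts near the smallest listed value limit what low miRNAs can show, and shallower CAST/EiJ libraries list fewer miRNAs.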
